A study of Mus musculus with 4 samples.

Results

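Tight junctions seal the space between neighbouring epithelial cells. Claudins form the strands and decide which ions and solutes pass. The MARVEL proteins occludin, tricellulin and MarvelD3 sit in the same strands. Junctional adhesion molecules lie beside them, scaffold proteins tie the strands to actin, and polarity proteins place the junction at the apical end of the cell. Islet endocrine cells are of epithelial origin and keep many of these genes on, while the vessels, nerves and connective tissue of an islet bring claudins of their own.

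The genes described here are the protein-coding claudins of the deposited table, taken by symbol, and 17 named genes of the tight junction complex. All 17 were found, and with 23 claudins they make 40 of the 55487 genes in the table. A gene was called expressed at a normalized read count of 10 or more in at least 2 of the 4 libraries. By that threshold 29 of the 40 were expressed, namely 12 claudins and all 17 others, and 11 claudins were not.

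RNA was sequenced from islets of 30-week-old C57BL/6 mice, freshly isolated. The control group was Ggcx flox/flox, in which loxP sites flank part of the Ggcx gene and no Cre is carried. The knockout group was Ggcx flox/flox; Pdx1-Cre, in which Pdx1-Cre recombines the floxed gene in the pancreatic lineage, which gives rise to endocrine, acinar and duct cells. Each library pooled the islets of 2 mice, with 2 libraries per group, and no group carried Cre without the floxed gene, so the Cre transgene and the loss of Ggcx cannot be told apart. Ggcx, which encodes the vitamin K-dependent gamma-carboxylase, stood at 3971 and 3981 normalized counts in control islets and at 234 and 643 in knockout islets, as the labels say. The libraries held 47624630 to 51756221 reads assigned to genes. The control libraries are named 2 and 3, as in the deposited table, which differs from the numbering in the labels. The labels do not give the sex of the mice. The Y-linked gene Ddx3y stood between 3919 and 4379 normalized counts in all 4 libraries and Xist at 2.04 or less.

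The promoters of 4 genes on which the comparison turns are shown first. Cldn2 rose and Ocln fell in knockout islets, Marveld2 lies upstream of Ocln on the same strand, and Cldn11 stood high in a single library. Each sequence gives the 250 bases before the RefSeq start on GRCm38.p6, 5′ to 3′ on the strand of the gene. Ocln and Marveld2 have 2 RefSeq records each, and only the most upstream start is shown. Capitals mark matches on either strand to 3 short motifs of core promoters. The motif TATAAA is searched for as the TATA box. The motif searched for as the Sp1-type GC box is spelled GGGCGG. The last is the pentamer CCAAT, which binds the factor NF-Y.
Cldn2 promoter (chrX:139800558-139800807, plus strand): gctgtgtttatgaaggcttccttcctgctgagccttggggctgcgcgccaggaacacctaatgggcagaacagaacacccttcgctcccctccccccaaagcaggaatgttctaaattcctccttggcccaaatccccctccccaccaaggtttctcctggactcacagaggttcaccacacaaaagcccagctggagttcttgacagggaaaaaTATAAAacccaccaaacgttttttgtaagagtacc
Ocln promoter (chr13:100552719-100552968, minus strand): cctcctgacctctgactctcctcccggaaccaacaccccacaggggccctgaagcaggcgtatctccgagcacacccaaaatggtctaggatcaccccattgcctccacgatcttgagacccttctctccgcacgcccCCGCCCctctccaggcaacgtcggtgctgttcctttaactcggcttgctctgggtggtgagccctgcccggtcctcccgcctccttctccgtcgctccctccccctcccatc
Marveld2 promoter (chr13:100616972-100617221, minus strand): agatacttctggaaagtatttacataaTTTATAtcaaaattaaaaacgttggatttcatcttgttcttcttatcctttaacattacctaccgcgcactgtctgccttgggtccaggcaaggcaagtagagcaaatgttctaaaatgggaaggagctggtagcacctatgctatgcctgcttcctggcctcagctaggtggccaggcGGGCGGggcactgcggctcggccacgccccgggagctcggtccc
Cldn11 promoter (chr3:31149670-31149919, plus strand): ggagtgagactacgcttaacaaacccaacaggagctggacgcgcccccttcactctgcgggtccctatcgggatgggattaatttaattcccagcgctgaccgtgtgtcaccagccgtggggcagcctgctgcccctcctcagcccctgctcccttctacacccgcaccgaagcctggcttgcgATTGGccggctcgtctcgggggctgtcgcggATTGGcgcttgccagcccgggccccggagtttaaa

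The Cldn2 window held a TATA box match that begins 35 bases before the start, and 4 CpG dinucleotides in 52.0% GC. The Ocln window held no TATA box match and a GC box match, with 14 CpG dinucleotides in 64.0% GC. Of all 32851 RefSeq windows of this length, 12.4% held the TATA box, 33.8% the pentamer and 32.7% the GC box. A window was found for 31 of the 40 genes, taken at the most upstream RefSeq start where several were listed. The 21 windows of expressed genes had a median GC content of 60.8% and 16 of them held the GC box. The 10 windows of genes that were not expressed had a median of 48.0%, and 2 held the GC box. The TATA box was in 2 of the 21 (Cldn2 and Marveld2) and none of the 10, and the pentamer in 5 and 6. The Marveld2 match was to the reverse complement and began 223 bases before the start. CAGGTG, the E-box that Snail-family repressors bind, or its reverse complement, was in 8 of the 21 and in none of the 10, against 17.2% of all windows. The Grainyhead-type motif AACCNGTT was in 1 of the 21 and 1 of the 10 (1.79% of all windows), and the AP-1-type motif TGANTCA in 4 and 0 (6.75%). These are letter matches only, and no test was made of them.

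Islets carried a set of claudins led by Cldn4, Cldn3 and Cldn7. Levels between genes are given as normalized counts per kb of annotated exon. Cldn4, a barrier-forming claudin of many simple epithelia, stood at 1851 and 2772 counts per kb in control islets and at 1762 and 2037 in knockout islets. Cldn3, also of the barrier-forming kind, stood at 1306 and 1430 in controls and at 1161 and 1327 in knockouts. Cldn7, which forms a complex with Epcam, lay between 1116 and 1188 in all 4 libraries, so its range overlapped that of Cldn3. These 3 genes together supplied most of the claudin transcript. Cldn4 made up 34.2% and 41.5% of the summed claudin level per kb in controls and 32.3% and 35.5% in knockouts, Cldn3 21.3% to 24.1% and Cldn7 17.8% to 20.6% over the 4 libraries.

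A middle tier held Cldn12, Cldn23 and Cldn6. Cldn12 stood between 483 and 504 counts per kb over the 4 libraries. Cldn23 ranged from 251 to 374 and Cldn6, known from embryonic epithelia, from 235 to 265. Cldn9, Cldn15, Cldn1, Cldn2 and Cldn8 were far lower, between 6.51 counts per kb for Cldn8 and 46.1 for Cldn2. Cldn15 and Cldn2 form cation pores, and Cldn1 is the main claudin of the epidermal barrier. Cldn8 was the lowest expressed member, at 15.3 to 24.0 normalized counts.

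Of the 11 claudins below the threshold, Cldn5 was the closest to it. Cldn5, the main claudin of endothelial cells, stood at 9.20 and 11.7 normalized counts in controls and at 8.33 and 5.75 in knockouts, while the endothelial gene Plvap stood between 6972 and 8937. Cldn10, Cldn13, Cldn14 and Cldn20 were seen at 2.04 normalized counts or less in any library. Cldn16 and Cldn19 of the kidney, Cldn18 of stomach and lung, and Cldn17, Cldn22 and Cldn24 had 0 reads in all 4 libraries. A count of 0 allows up to 3 reads, or 2.88 to 3.12 normalized counts depending on the library. This limit covers counting error only. For Cldn22, all 995 exonic bases are shared with Wwc2, an expressed gene on the other strand. The strand setting of the read counting is not known here, so the 0 of Cldn22 cannot be read as absence.

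Outside the claudins, the highest level per kb was that of Epcam, an epithelial adhesion protein that binds Cldn7, at 2663 to 2836 counts per kb. Lsr, the angulin that recruits tricellulin to the corners where 3 cells meet, followed at 1309 to 1395. Tjp1, which encodes the ZO-1 scaffold, stood at 928 to 1092, F11r (JAM-A) at 966 to 994 and Marveld3 at 608 to 645. Jam2, Cgn (cingulin), Cxadr (the coxsackievirus and adenovirus receptor, a relative of the JAMs), Pard3 and Jam3 lay between 267 and 520. Pard6b, Patj, Ocln, Marveld2 (tricellulin), Mpdz and Tjp3 (ZO-3) lay between 142 and 403. Cgnl1, the cingulin-like scaffold, was at 18.5 to 22.8. Of the 12 expressed members with the highest level per kb, 11 were also in the first 12 when the length of the longest transcript was used.

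**Figure D1:**
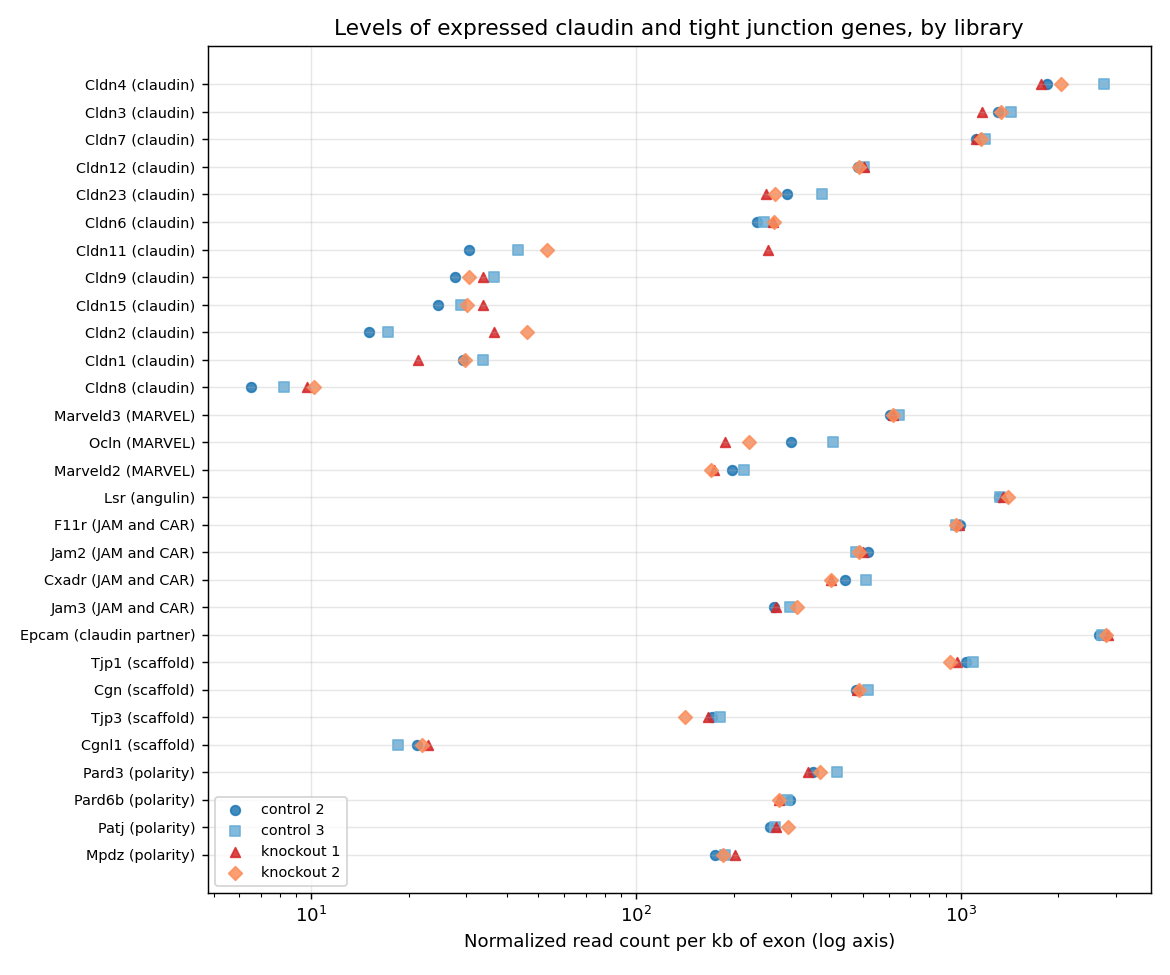
Normalized read count per kb of annotated exon (log axis) for the 29 expressed claudin and tight junction genes, grouped by role, with a point for each of the 4 libraries. Epcam and Cldn4 are the highest and Cldn8 is the lowest. For most genes the 4 points lie close together; Cldn11 stands at 255 in knockout library 1 and at 30.6 to 53.3 in the other libraries, and Cldn2 and Ocln separate by genotype.

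The comparison of knockout with control islets asked whether the junction genes change when Ggcx is lost. Most differed little between the genotypes. Of the 29 expressed members, Cldn2 rose, Ocln fell and 27 did not pass the test, which was limma on log2(value + 1) over 16589 genes with a Benjamini-Hochberg adjusted p under 0.05. The background was 0.247% of all tested genes called higher and 0.374% called lower, and the 2 calls here amount to 1 gene in each direction. edgeR and DESeq2 on the recovered reads called the same 2 genes in the same directions, against 0.344% and 0.428% of tested genes called higher and lower by edgeR and 0.723% and 1.22% by DESeq2. The authors' deposited table also calls these 2 members and no other, against 0.830% higher and 1.52% lower of the genes with an adjusted p in it. The median log2 fold change of the 29 was -0.01, beside 0.00 over all tested genes. The log2 fold change was within 0.2 of 0 for 19 of the 29 (65.5%, against 73.6% of all tested genes), and within 0.5 for 26 (89.7%, against 92.9%). Group ranges did not overlap for 9 members with knockout above and 7 with knockout below (31.0% and 24.1%), against 22.0% and 23.0% of all tested genes, or 45.0% in either direction. An unadjusted p under 0.05 was found for 7 of the 29 (24.1%), against 14.1% of all tested genes.

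**Figure D2:**
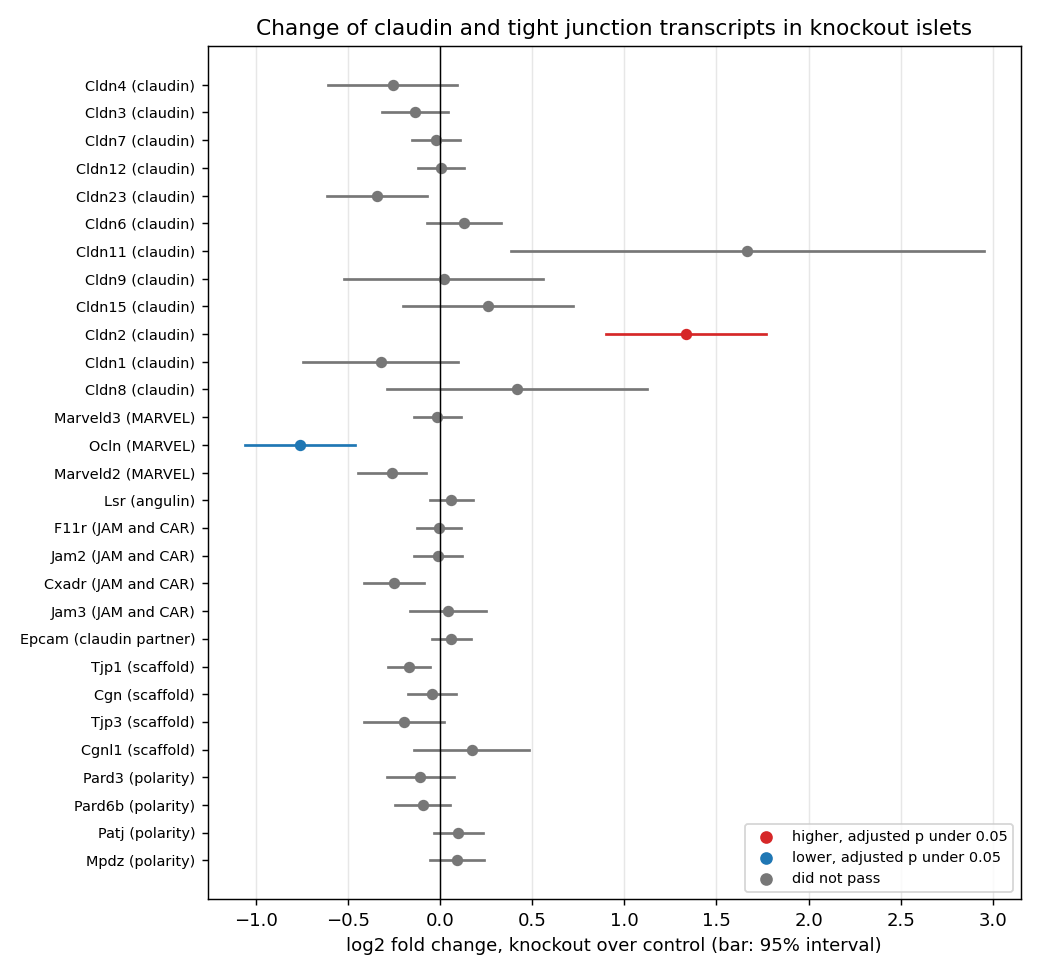
The log2 fold change of knockout over control (points) with its 95% interval (bars, from limma and not adjusted for the number of genes) for the 29 expressed members, grouped by role. Cldn2 at 1.33 is higher and Ocln at -0.76 is lower past the adjusted threshold; Cldn11 has the widest interval, 0.39 to 2.95, and 26 of the 29 points lie within 0.5 of 0.

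Cldn2 (ENSMUSG00000047230; GRCm38 chromosome X, 139800828 to 139811386, plus strand) encodes a claudin that forms pores for cations and water and is typical of leaky epithelia. The normalized count of Cldn2 was 50.1 and 57.5 in control libraries 2 and 3 and 122 and 153 in knockout libraries 1 and 2. Both knockout values lay above both control values. The control mean was 53.8 ± 5.24 and the knockout mean 138 ± 22.4 (SD, n = 2 each), a ratio of 2.56. On the log2 scale Cldn2 rose by 1.33 ± 0.19 (SE; limma adjusted p = 0.0366). The authors' deposited table gives 1.36 ± 0.33 for the same direction and an adjusted p of 0.00369. In spite of the rise, Cldn2 made up 0.67% and 0.80% of the summed claudin level per kb in knockout islets, up from 0.28% and 0.26%. The call held with each of the 4 libraries left out in turn, the smallest log2 fold change being 1.17. It was lost when low genes were not filtered out (adjusted p = 0.217) and without the mean-variance trend of limma (0.324), with the same log2 fold change.

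Ocln (ENSMUSG00000021638; chromosome 13, 100496507 to 100552718, minus strand) encodes occludin, the first integral membrane protein identified in the tight junction. Its normalized count was 1269 and 1702 in control libraries 2 and 3 and 796 and 942 in knockout libraries 1 and 2. The groups did not overlap, and the control libraries lay further apart than the knockout ones. The control mean was 1485 ± 306 and the knockout mean 869 ± 103 (SD, n = 2 each). The fall was -0.76 ± 0.13 on the log2 scale (SE; limma adjusted p = 0.0475). The authors' deposited table gives -0.77 ± 0.14 and an adjusted p of 1.01e-05. The limma call lay just under the threshold and was lost without control library 3, where the log2 fold change was -0.55 (adjusted p = 0.0555). It was also lost with a filter at 50 (0.0599), with no filter (0.240), without the trend (0.398) and with robust empirical Bayes (0.141). edgeR on the recovered reads kept it (-0.77, adjusted p = 0.0415), as did DESeq2.

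Occludin and tricellulin are encoded near each other. Marveld2 (ENSMUSG00000021636; chromosome 13, 100595957 to 100616971, minus strand) begins upstream of Ocln on the same strand, with 43238 bases between the genes. Marveld2 stood at 667 and 729 normalized counts in controls and at 588 and 576 in knockouts, without overlap. Its log2 fold change was -0.26 ± 0.08, with a 95% interval of -0.44 to -0.08 and a limma adjusted p of 0.188, so it did not pass. Marveld3, the third protein of the family, stood at 1997 and 2119 in controls and at 2033 and 2040 in knockouts, a log2 fold change of -0.01 ± 0.06. Per kb of exon, Marveld3 was above Ocln in each of the 4 libraries.

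The abundant claudins gave no call. Cldn4 stood at 3361 and 5035 normalized counts in controls and at 3200 and 3699 in knockouts, and the value of control library 3 lay above the other 3 libraries. The log2 fold change of Cldn4 was -0.26 ± 0.15 (95% interval -0.61 to 0.09; limma adjusted p = 0.520). It was -0.55 without control library 2 (adjusted p = 0.0147) and 0.03 without control library 3. Cldn3, whose gene lies 39279 bases from that of Cldn4 on the opposite strand, stood at 1644 and 1800 in controls and at 1461 and 1671 in knockouts, with a log2 fold change of -0.14 ± 0.08. Cldn7 and Cldn12 were near 0, at -0.02 ± 0.06 and 0.00 ± 0.06, with 95% intervals of -0.15 to 0.11 and -0.12 to 0.13.

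Cldn23 stood at 537 and 691 normalized counts in controls and at 464 and 496 in knockouts. The groups did not overlap, but the log2 fold change of -0.34 ± 0.12 did not pass (limma adjusted p = 0.236), and it was -0.53 without control library 2 (0.0324). Cldn6 stood at 405 and 427 in controls and at 454 and 456 in knockouts (0.13 ± 0.09). Cldn9, which lies 137 bases from Cldn6 in tail-to-tail arrangement, was at 39.8 and 52.6 in controls and at 48.9 and 44.1 in knockouts. The remaining low claudins had wide intervals, so a change of moderate size could not be seen at these levels. Cldn15 was at 0.26 ± 0.20, Cldn1 at -0.32 ± 0.19 and Cldn8 at 0.42 ± 0.31 on the log2 scale.

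Cldn11 (ENSMUSG00000037625; chromosome 3, 31149920 to 31164324, plus strand) encodes a claudin of central nervous system myelin and of the Sertoli cell barrier in the testis. Its normalized count was 57.2 and 80.9 in control libraries 2 and 3, 477 in knockout library 1 and 99.7 in knockout library 2. A single library therefore carried most of the difference. On the log2 scale the difference was 1.67 ± 0.57 (limma adjusted p = 0.226). Without knockout library 1 it was 0.55 (0.539), and without knockout library 2 it was 2.79 (3.04e-06). Markers of Schwann cells, the glia of peripheral nerves, summed to 677 normalized counts in knockout library 1 and to 603 to 772 in the other 3 libraries. Stellate cell and fibroblast markers were highest in that library. Of all tested genes, only Cldn11, Igkc and Jchain stood in knockout library 1 at least 4-fold above each of the other libraries, a comparison chosen after the value of Cldn11 was seen. Igkc and Jchain encode an immunoglobulin light chain and the joining chain of plasma cells. They stood at 193 and 86.4 normalized counts there and at no more than 35.5 and 17.3 elsewhere.

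**Figure D3:**
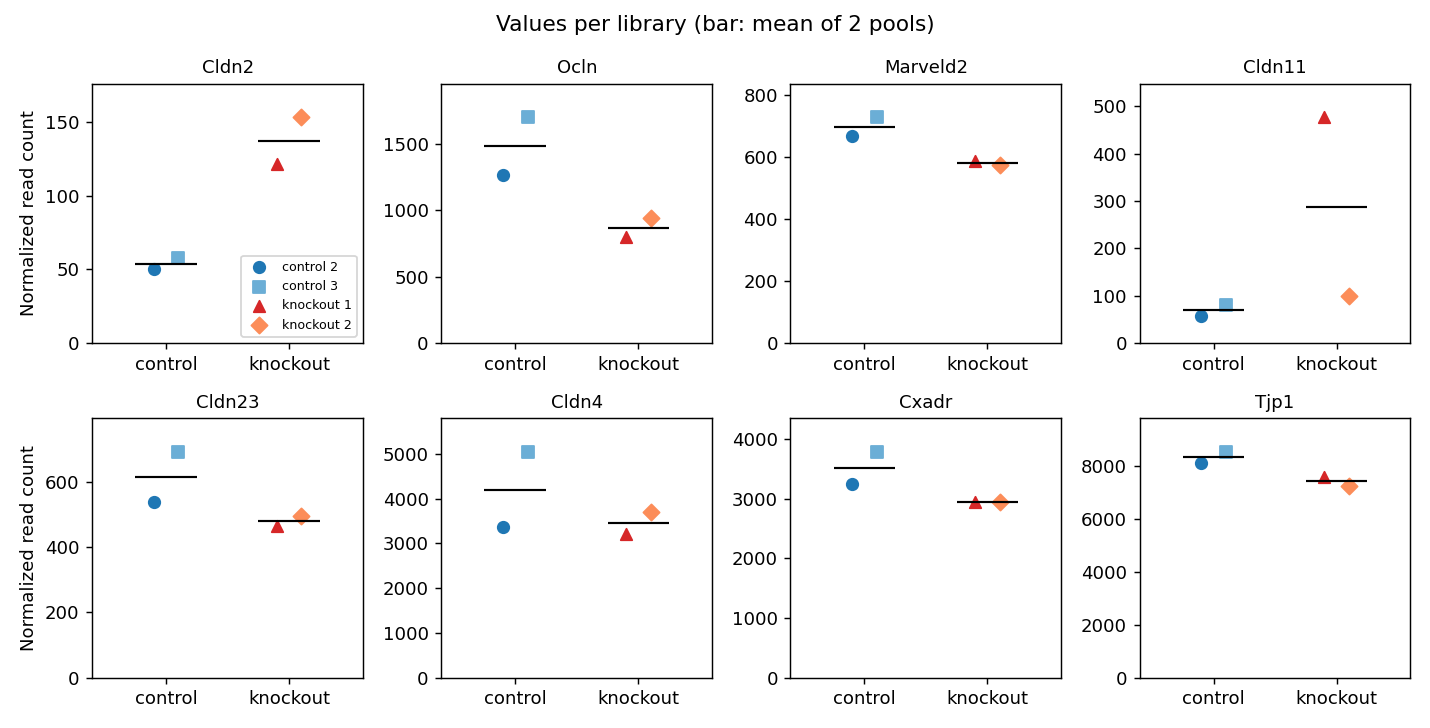
Normalized read count in each library for Cldn2, Ocln, Marveld2, Cldn11, Cldn23, Cldn4, Cxadr and Tjp1, each on its own axis from 0, with a line at the mean of the 2 pools of a group. Cldn2 (50.1 and 57.5 against 122 and 153) and Ocln (1269 and 1702 against 796 and 942) separate by genotype, the Cldn11 difference rests on knockout library 1 at 477, and control library 3 is the highest of the 4 for Ocln, Marveld2, Cldn23, Cldn4, Cxadr and Tjp1.

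Among the receptors and adhesion molecules beside the strands, none passed. Cxadr stood at 3247 and 3781 normalized counts in controls and at 2942 in each knockout library. The log2 fold change was -0.25 ± 0.07 (95% interval -0.41 to -0.09; limma adjusted p = 0.151), and it was -0.36 without control library 2 (0.0174). Exons of Cxadr share 695 bases with Btg3, which is read from the other strand. Whether reads were counted by strand is not given in the sources used here. F11r, at 2647 and 2573 against 2624 and 2576, had a log2 fold change of -0.01 ± 0.05 and a 95% interval of -0.12 to 0.11. That interval is narrow, but it rests on 2 pools a group and on spread borrowed across genes. Jam2, shared by endothelial and other cells, was at -0.01 ± 0.06 and Jam3 at 0.04 ± 0.09. Lsr (0.06 ± 0.05) and Epcam (0.06 ± 0.05) had knockout values above both controls by a small margin. Exons of Jam3 and Lsr also overlap genes on the opposite strand.

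The scaffolds and polarity proteins gave no call either. Tjp1 stood at 8139 and 8530 normalized counts in controls and at 7601 and 7247 in knockouts. The groups did not overlap, and the log2 fold change was -0.17 ± 0.05 (95% interval -0.28 to -0.05; limma adjusted p = 0.173). Tjp3 was at -0.20 ± 0.10, Cgn at -0.04 ± 0.06 and Cgnl1 at 0.17 ± 0.14. Pard3 and Pard6b, which work with atypical protein kinase C in the PAR complex, were at -0.11 ± 0.08 and -0.09 ± 0.07. Patj and Mpdz, related proteins with many PDZ domains, were at 0.10 ± 0.06 and 0.09 ± 0.07. For all 4 scaffolds and all 4 polarity genes, the 95% interval lay within 0.5 of 0 on the log2 scale.

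Summed per kb, the expressed claudins stood at 5417 and 6682 in control libraries 2 and 3 and at 5448 and 5735 in the knockout libraries, so the groups overlapped. The 17 other members summed to 10091 and 10541 in controls and to 10047 and 10070 in knockouts. The 2 controls differed from each other in a regular way. Control library 3 was above control library 2 for 25 of the 29 expressed members and for all 12 claudins, against 50.8% of all tested genes. Its summed claudin level was 1.23 times that of control library 2. Without control library 3 the log2 fold change of Ocln was -0.55, beside -0.76 with all 4 libraries. Without control library 2 the values were -0.55 for Cldn4 and -0.36 for Cxadr, beside -0.26 and -0.25 with all 4. Calls over the whole table were more frequent without control library 2, so calls gained there, as for Cldn23, were not particular to junction genes. The source of the difference between the controls was not tested.

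The other genes of the junctional complex did not pass the test. Of 36 tested genes of the tight junction outside the list above and of the adherens junction, 0 rose and 0 fell with limma. An unadjusted limma p under 0.05 was found for 7 of them, where 14.1% of all tested genes had one. edgeR also called 0, and DESeq2 called 1 lower. Their median log2 fold change was -0.04, with 28 of 36 below 0 (77.8%, against 49.9% of all tested genes). In the tight junction, the lowest unadjusted p-values belonged to Pard6g, Igsf5 and Ildr2. Pard6g, a PAR6 isoform, stood at 369 and 483 normalized counts in controls and at 306 and 260 in knockouts (-0.58 ± 0.14; limma adjusted p = 0.109). It passed without control library 2 (-0.77, 0.0249) and without knockout library 1 (-0.70, 0.0482). Igsf5 (JAM4) stood at 408 and 339 against 283 and 291, and Ildr2, an angulin, at 36.8 and 30.2 against 59.3 and 52.7.

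In the adherens junction, the belt that lies just below the tight junction, Vcl, Cdh1 and Ctnnd1 had the lowest p-values. Vcl (vinculin, an actin linker) stood at 1536 and 1517 normalized counts in controls and at 1240 and 1197 in knockouts (-0.33 ± 0.06; limma adjusted p = 0.0550). It passed with robust empirical Bayes (0.0345) and with DESeq2 (0.0334). Cdh1, which encodes E-cadherin, stood at 18602 and 19643 against 17176 and 16254 (-0.19 ± 0.05; adjusted p = 0.132), and Ctnnd1 (p120 catenin) was at -0.15 ± 0.06. Nectin1, named here because it passed under an alternative, did so without control library 2 (-0.36, 0.0329). Transcription and splicing factors of epithelial cells gave no call among 12 tested with limma or edgeR. Of the 12, 2 had an unadjusted limma p under 0.05, as did 14.1% of all tested genes. The lowest p-values were those of Ehf (-0.32 ± 0.06; limma adjusted p = 0.0634), Elf3 (-0.23 ± 0.06; 0.146) and Hnf4a (-0.19 ± 0.11; 0.512). Ehf passed without knockout library 1 (-0.37, 0.0445), with robust empirical Bayes (0.0381) and with DESeq2 (0.0180).

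Whole islets hold several cell types, and in such samples fewer cells of a type cannot be told apart from less RNA per cell. Beta cell markers gave no call among 6, and their sum was 9048199 to 9534899 normalized counts in controls and 9529558 to 9872673 in knockouts. Ins1 and Ins2 took most of this sum, with log2 fold changes of 0.12 and 0.04. The other 4 were below 0, namely Slc2a2 (-0.17 ± 0.05, groups without overlap), Mafa (-0.13), Nkx6-1 (-0.09) and Ucn3 (-0.06). Most acinar markers, like Ocln, had lower values in knockouts. Of the 10 tested, 0 passed, and 9 had an unadjusted limma p under 0.05, against 14.1% of all tested genes. All 10 had a log2 fold change below 0, against 49.9% of all tested genes, though Bhlha15 was at -0.03 with overlapping groups. Their sum was 15795 and 16705 in control libraries 2 and 3, 8620 in knockout library 1 and 13172 in knockout library 2. The 4 libraries stood in the same order for this sum, for Ocln and for Cldn23. The beta cell marker Ucn3, the macrophage marker Cd14 and Nectin1 had that order too, so it was not particular to acinar markers. The share of all genes in that order was not counted, and no test was made of it. Levels within the list differed widely. Amy2a5 and Rbpjl stood at 5.75 normalized counts or less in every library and were not tested. Their means were higher in knockouts (4.44 and 2.44) than in controls (1.51 and 1.49). Pnlip stood at 895 to 2850 and Cpa1 at 851 to 1827. The part of acinar cells in the Ocln difference was not tested.

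Some other marker lists, like Cldn2, had higher summed values in knockouts. Stellate cell and fibroblast markers summed to 2292 and 1712 in controls and to 3520 and 2679 in knockouts. Dcn was called higher among 8, and all 8 log2 fold changes were above 0, where 49.9% of all tested genes were below 0. Alpha cell markers summed to 1173173 and 1369601 in controls and to 1664948 and 1382228 in knockouts. In the delta cell list Rbp4 was called higher among 3, and the sum was 126212 and 124320 against 129839 and 141857. The sums of the duct cell list overlapped between the groups. Duct cell markers, among which Krt7 took most of the sum, stood at 12343 and 12546 against 13010 and 12208, with 0 of 6 called. Krt19, a defining duct marker, stood at 15.3 and 30.2 in controls and at 37.5 and 44.1 in knockouts. The sums were 151248 and 174244 for PP cells in knockouts against 150919 and 105625 in controls. Endothelial, macrophage, lymphocyte, Schwann and mesothelial lists gave no call. Schwann cell markers summed to 629 and 603 in controls and to 677 and 772 in knockouts. Lymphocyte markers summed to 435 and 394 in controls and to 495 in each knockout library. The mesothelial sum, all of it Msln, was 1563 and 1550 in controls and 1794 and 2025 in knockouts. Upk3b and Wt1 of that list had 0 reads. The endothelial and macrophage sums overlapped between the groups. The part of any of these cell types in the Cldn2 difference was not tested.

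**Figure D4:**
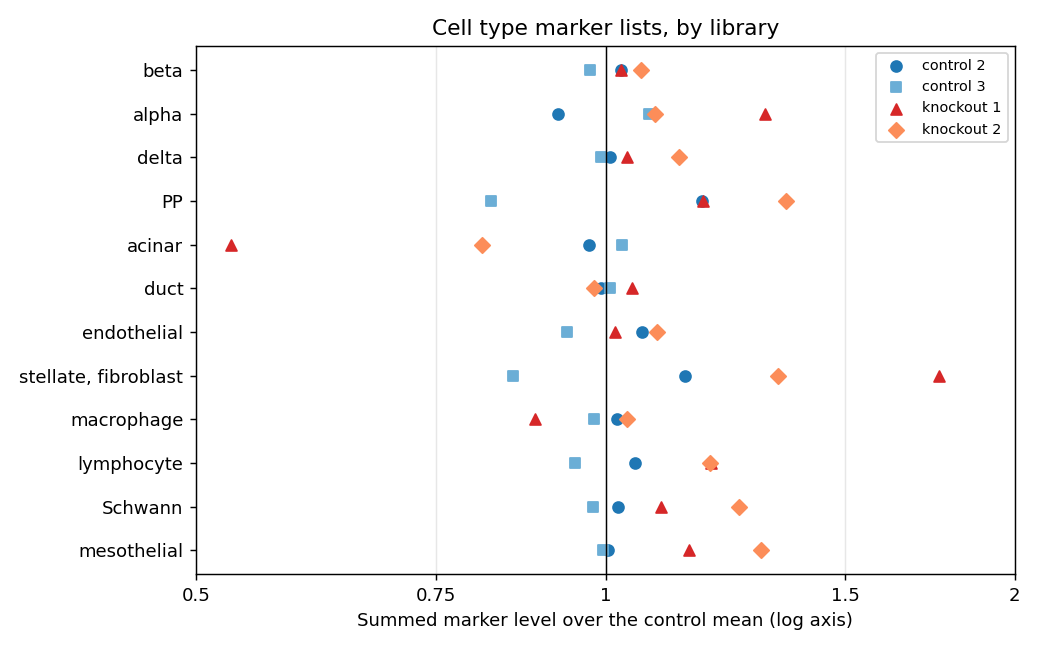
Summed normalized read count of each cell type marker list in each library, divided by the mean of the 2 control libraries (log axis). Acinar markers are lowest in knockout library 1 (8620 against 15795 and 16705 in controls). Stellate and fibroblast markers are highest there (3520 against 2292 and 1712). The beta cell sum, most of it Ins1 and Ins2, stays close to the control mean in all 4 libraries.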

How the data were processed

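Poly(A)-enriched RNA of 4 islet pools was sequenced, per the labels' protocols. CASAVA 1.4, STAR 2.5.1b, featureCounts 1.6.0 and DESeq2 1.22.2 are listed in the submitters' processing notes, as is GRCm38. The annotation used for counting is not given in the sources used here.

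The authors deposited, for each gene, a signal in every library, given by the name of the table as counts scaled for library size. The log2 fold change, its standard error, the score (test statistic) and the p-values, raw and adjusted, were also deposited. All values (100%) were whole reads once divided by what a read is worth (tolerance 0.01). On those reads edgeR called 57 genes higher and 71 lower. Control columns were matched to the group and knockout columns to samples.

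Genes at 10 or more in at least 2 libraries (16589) were tested with limma 3.58.1 (R 4.3.3) on log2(value + 1), two-sided. Empirical Bayes used a mean-variance trend, and p-values were adjusted by Benjamini-Hochberg over all tested genes at 0.05. The pseudocount understates changes of low genes. The spread borrowed across genes carried 6.85 degrees of freedom beside 2 residual ones. With 2 libraries a group, exact permutation p-values are at least 0.333. Alternatives were edgeR 4.0.16 and DESeq2 1.42.0 on the recovered reads, other pseudocounts, filters, scalings and variance settings, and each library left out. The steps were tested on simulated data. Exon lengths and positions are from GENCODE M21 (GRCm38), promoters from RefSeq. The members, lists and tests were chosen with earlier results of these data known. All members were accounted for. Of the junction and regulator lists, called genes and the 3 lowest p-values were named, and of the marker lists the sums, called genes and defining markers. Some genes of these lists are not reported here.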

Additional observations from a re-analysis of the deposited data

How the results depend on the processing

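The members called higher numbered 1 and those called lower 1. These counts became 0 and 0 with no filter on low values and without the mean-variance trend. The count of members called lower was 0 with a filter at 50 and with robust empirical Bayes. With a library left out, 1 to 2 members were higher and 0 to 4 lower. Of other junction genes, 0 were called lower, 1 with robust empirical Bayes, 1 with DESeq2, and 0 to 2 with a library left out. Over all genes, 41 were higher and 62 lower. These counts were 1 and 1 with no filter, 19 and 32 with a filter at 50, 0 and 0 without the trend, 85 and 124 with robust empirical Bayes, and 120 and 202 with DESeq2, and from 58 to 207 and from 49 to 241 with a library left out. The median level of expressed members in controls was 332 counts per kb of exon and 465 per kb of longest transcript. The 16 genes chosen for description in every library, Ggcx included, gave 224 values under alternatives. In 10 a call was lost (Ocln, Cldn2 and Ggcx) and in 3 a call was gained (Cldn11, Cldn4 and Cxadr). Of the uncalled values, 14 had the other sign (Cldn4, Cldn7, Cldn12, F11r, Marveld3, Jam2 and Cgn). Outside these genes, Cldn23, Pard6g, Vcl, Nectin1 and Ehf passed under an alternative, as given with each. Pseudocounts of 0.5 and 5, a common total, a common upper quartile and edgeR changed none of the members' calls. When a library is left out, the lone library of its group is assumed to vary like the others. The precision of Cldn1, Cldn2, Cldn8, Cldn9, Cldn11 and Cldn15 is limited by their low counts. No paired analysis was possible because the control columns carry the numbers 2 and 3 and the knockout columns 1 and 2, so fewer than 2 numbers are shared.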
